A study of Mus musculus with 4 samples.

Results

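The oxidative burst is the chemical attack that phagocytes mount on what they have engulfed. Its 8 genes described here, Cybb, Cyba, Ncf1, Ncf4, Rac2, Hvcn1, Nos2 and Sod2, were taken by name from a table of 54532 genes, and each had exactly 1 row. The table holds bulk RNA-seq counts of alveolar macrophages (AMs), which live in the airspace of the lung. All donors were female and wild type. In the Control group were 2 libraries from mice that received no tumor cells. In the Tumor group were 2 libraries taken 2 weeks after inoculation with 4T1 cells, a mammary carcinoma line that the study injected into the mammary fat pad of BALB/c mice. The labels give no age, and the methods place the study's wild-type mice in young adulthood. Whether a library is 1 mouse or a pool is not said, and the sequencing methods say that AMs were purified without naming a gate. The p-values below therefore measure the spread between these libraries, which may be technical.

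The centre of the burst is the phagocyte NADPH oxidase. Its catalytic subunit NOX2 (gp91phox, encoded by Cybb) sits in the membrane together with p22phox (Cyba) and passes electrons from NADPH onto oxygen, which yields superoxide. The enzyme is silent until cytosolic subunits reach the membrane, among them p47phox (Ncf1) and p40phox (Ncf4), together with a Rac GTPase such as the blood-cell form Rac2. Electron flow leaves charge behind, and the voltage-gated proton channel HVCN1 (Hvcn1) relieves it by letting protons out. Inducible nitric oxide synthase (Nos2) makes nitric oxide from arginine, and mitochondrial manganese superoxide dismutase (Sod2) turns superoxide into hydrogen peroxide. Resident AMs meet inhaled particles and microbes first, and the oxidase is one of their means of killing.

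Of the 8 genes, 7 passed edgeR's quasi-likelihood test at a Benjamini-Hochberg adjusted p under 0.05, 4 higher and 3 lower in the Tumor group. These counts stand beside a background in which 53.8% of the 14256 genes tested passed, 29.0% higher and 24.8% lower. Of the 8, 3 differed by 2-fold or more, against 15.9% of all genes tested. Nos2 is among these 7 and these 3, and it had enough counts for testing in the Tumor libraries alone. Levels of the groups did not overlap for any of the 8, which was also the case for 75.1% of genes tested. Their median was 0.14 on the log2 scale, against 0.02 over all genes tested. The genes therefore did not move as a block. The catalytic subunit, the proton channel and the mitochondrial dismutase fell, whereas Ncf1, Ncf4, Rac2 and Nos2 rose.

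Total counts per library ranged from 16167147 to 19205737. Levels are given as CPM (counts scaled to library size, with TMM factors between 0.977 and 1.02). A value of 3 counts, equal to 0.153 to 0.190 CPM, was taken as the floor under which a gene was not read as expressed, and it covers counting error only. Scaling mattered for direction. When the libraries were instead scaled on a list of 16 AM marker genes, the median over all tested genes moved from 0.02 to 0.51 (log2), and 93.2% of called genes were higher, against 53.9% with TMM.

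The start regions of the oxidase pair and of Sod2 are shown here because these genes changed unequally, and they were among 4 of the 8 genes with an entry in the promoter table. Each run below covers 250 bases before and 30 bases after the RefSeq start (build GRCm38.p6), 5′ to 3′ on the strand of the gene. Capitals mark matches, on either strand, to GAGGAA (core of the myeloid factor PU.1) or GCGTG (core of the AHR response element). They also mark GGGA and CC with any 4 bases between them (a loose NF-kB pattern), TTCNNNGAA (STAT) and TGANTCA (AP-1).
Cybb, chrX:9469295-9469574, minus strand: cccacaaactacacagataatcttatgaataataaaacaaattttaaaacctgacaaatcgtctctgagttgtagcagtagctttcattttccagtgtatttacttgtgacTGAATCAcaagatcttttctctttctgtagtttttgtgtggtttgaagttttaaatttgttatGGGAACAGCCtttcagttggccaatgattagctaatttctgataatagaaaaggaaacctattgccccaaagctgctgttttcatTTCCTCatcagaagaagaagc
Cyba, chr8:122432911-122433190, minus strand: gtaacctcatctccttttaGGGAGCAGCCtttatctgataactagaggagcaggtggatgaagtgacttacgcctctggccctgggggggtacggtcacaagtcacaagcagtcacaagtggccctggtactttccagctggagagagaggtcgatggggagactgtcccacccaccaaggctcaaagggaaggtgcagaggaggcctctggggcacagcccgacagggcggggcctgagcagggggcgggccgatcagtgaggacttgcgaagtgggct
Sod2, chr17:13007589-13007868, plus strand: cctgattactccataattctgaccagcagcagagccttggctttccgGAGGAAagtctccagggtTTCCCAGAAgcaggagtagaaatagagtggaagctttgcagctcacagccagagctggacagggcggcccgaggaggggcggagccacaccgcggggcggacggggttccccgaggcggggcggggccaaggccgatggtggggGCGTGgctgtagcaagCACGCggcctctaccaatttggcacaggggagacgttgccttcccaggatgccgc
The Cybb window held a PU.1 core from base 10 to base 15 after the start, an NF-kB match and an AP-1 match. The Cyba window held a single NF-kB match. The Sod2 window held a PU.1 core, a STAT match and a pair of AHR response element cores. The Ncf1 window, not printed, held an NF-kB and a STAT match. Over 32851 windows of the same length, PU.1 cores occurred in 25.98%, NF-kB matches in 19.4%, AHR cores in 30.8%, STAT matches in 7.83% and AP-1 matches in 7.46%. No match overlapped a match of another motif in the 4 windows. Such matches are descriptions of the letters, not sites of binding.

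Cybb (ENSMUSG00000015340, chromosome X, 9435252 to 9487771, minus strand, GRCm38) had the highest counts of the 8 genes. Its level was 4282 and 4163 CPM in the Control libraries and 2641 and 2567 CPM in the Tumor libraries. Both Tumor libraries lay far below both Controls, and the means were 4222 ± 83.7 and 2604 ± 53.0 CPM (SD, n = 2 each). This is 1.62-fold lower, a log2 fold change of -0.70 ± 0.0170 (SE) with an edgeR adjusted p of 2.89e-23. This fall shrank to -0.20 under scaling on the AM list and was still called, with an adjusted p of 1.19e-11.

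Cyba (ENSMUSG00000006519, chromosome 8, 122424776 to 122432930, minus strand), whose product holds NOX2 stable in the membrane, did not follow its partner. It stood at 439.2 and 467.4 CPM in the Control and 472.0 and 468.9 CPM in the Tumor libraries. The difference between the groups was no larger than that between the Control libraries. The log2 fold change of 0.05 ± 0.0279 (SE) had a 95% interval from -0.0029 to 0.11 and an edgeR adjusted p of 0.103. It was called higher with total counts as library sizes (0.12), with the AM list scaling (0.55), with a filter of at least 10 counts in every library (0.08) and without Control replicate 2 (0.09, adjusted p 0.0101).

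**Figure D1:**
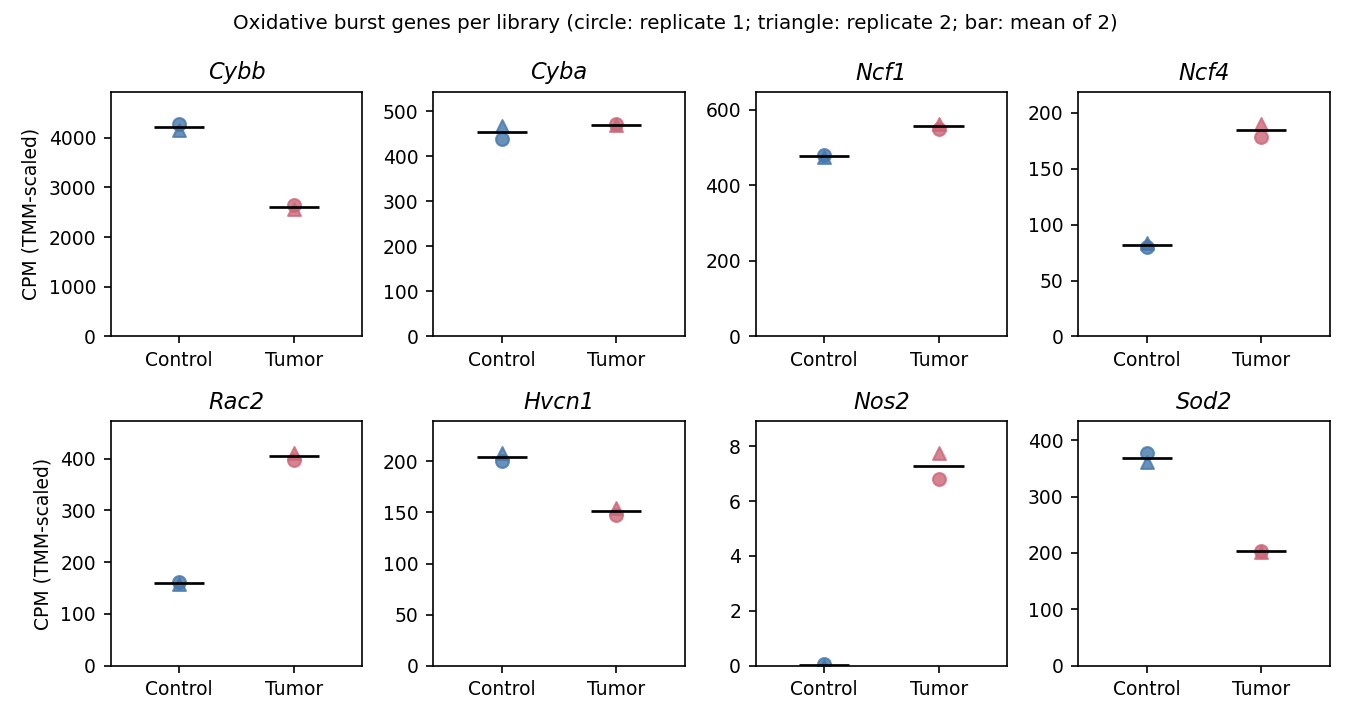
Level of each of the 8 genes in CPM (y axis, TMM-scaled, each panel with its own range from 0) in the 2 Control and 2 Tumor libraries, with circles for replicate 1, triangles for replicate 2 and a bar at the mean. Cybb, Hvcn1 and Sod2 sit lower in both Tumor libraries, Ncf4, Rac2 and Nos2 sit well higher, and Cyba lies at nearly the same height in all 4.

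The ratio of genes within a library does not depend on how libraries are scaled. Per kilobase of gene length, Cybb stood at 1.74 and 1.59 times Cyba in the Control libraries and at 1.001 and 0.979 times Cyba in the Tumor libraries. How the pair compared in the Tumor libraries depended on the length used. Per kilobase of the longest transcript, Cybb was at 555.8 and 540.1 and Cyba at 634.4 and 630.2 there, so that Cyba was higher, whereas in Controls Cybb was higher by either length. With 2 libraries per group, an exact permutation test of such a ratio cannot go below a two-sided p of 0.333, so the ratios are given without a test.

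Ncf1 (ENSMUSG00000015950, chromosome 5, 134220053 to 134229625, minus strand) encodes the organizer subunit that carries the cytosolic complex to p22phox. It rose slightly, from 479.5 and 475.1 CPM to 549.3 and 562.2 CPM. All 4 values were close, yet the groups were apart by several times their spread. The log2 fold change was 0.22 ± 0.0247 (SE), or 1.16-fold higher, with an edgeR adjusted p of 1.49e-08. Gtf2ird2 lies across Ncf1 on the opposite strand and had 1264 and 1056 counts in the Control and 2013 and 2438 in the Tumor libraries. Strand use in counting is not stated, so reads of this overlap could have been shared.

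Ncf4 (ENSMUSG00000071715, chromosome 15, 78244801 to 78262580, plus strand) encodes p40phox, which binds a lipid of the phagosome membrane and sustains the oxidase there. Its level was 80.2 and 83.2 CPM in Controls and 178.6 and 190.2 CPM in the Tumor libraries, more than doubling in each. The log2 fold change was 1.18 ± 0.0431 (SE), or 2.26-fold higher, with an edgeR adjusted p of 3.60e-19. Under the AM list scaling it was 1.67.

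Rac2 (ENSMUSG00000033220, chromosome 15, 78559167 to 78572783, minus strand) had the largest rise among the oxidase genes. It went from 161.2 and 158.0 CPM to 397.9 and 410.8 CPM. Replicates lay within a few percent of each other in both groups. This is 2.53-fold higher, a log2 fold change of 1.34 ± 0.0313 (SE) with an edgeR adjusted p of 9.50e-24. Rac1, the form found in all cells, was at 526.1 ± 10.02 CPM in Controls against 509.3 ± 10.8 CPM in Tumor libraries (SD, n = 2 each) and was not called, with a log2 fold change of -0.05 and an edgeR adjusted p of 0.120. It was called higher under the AM list scaling, at 0.45. Per length, Rac2 stood at 0.438 and 0.441 times Rac1 in Controls and at 1.12 and 1.19 times Rac1 in the Tumor libraries, so the order of the GTPases was turned. Rac1 and Rac2 are close paralogs, and the handling of reads that match several genes is not stated.

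Ncf1 and Ncf4 rose by unequal amounts, 1.16-fold and 2.26-fold. The ratio of Ncf1 to Ncf4 per length was 3.30 and 3.15 in Controls and 1.70 and 1.63 in the Tumor libraries, a gap between the groups that no scaling of the libraries alters.

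**Figure D2:**
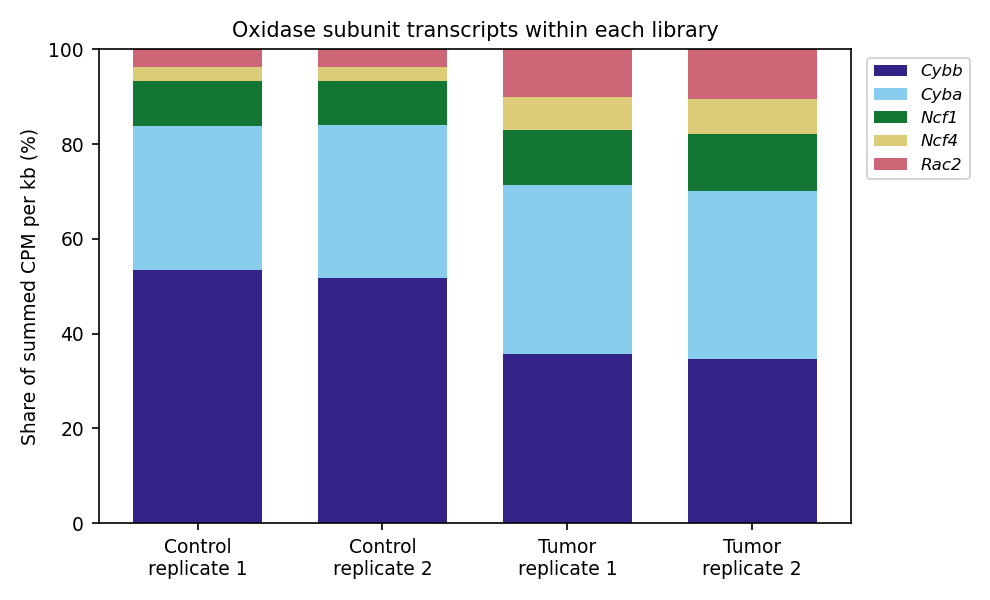
Share of each oxidase subunit gene in the summed CPM per kilobase of Cybb, Cyba, Ncf1, Ncf4 and Rac2 (y axis, percent), 1 stacked bar per library. Cybb takes 51.6% to 53.3% in Controls and 34.7% to 35.7% in the Tumor libraries, while Rac2 goes from 3.67% to 3.76% up to 10.1% to 10.4%.

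As shares of the sum of Cybb, Cyba, Ncf1, Ncf4 and Rac2 per length, Cybb held 53.3% and 51.6% in Controls against 35.7% and 34.7% in the Tumor libraries. Cyba held 30.6% and 32.4% against 35.6% and 35.4%. The share of Ncf4 went from 2.87% and 2.97% to 6.93% and 7.40%. These shares do not depend on the scaling of the libraries, and no value of 1 group fell within the range of the other for these genes.

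Hvcn1 (ENSMUSG00000064267, chromosome 5, 122206804 to 122242297, plus strand), the proton channel gene, was at 200.2 and 208.1 CPM in Controls and at 148.0 and 154.2 CPM in the Tumor libraries. The fall was of moderate size in both Tumor libraries. The log2 fold change was -0.43 ± 0.0366 (SE), that is, 1.35-fold lower, with an edgeR adjusted p of 5.22e-11. It was also lower with DESeq2 size factors (-0.44) and total counts (-0.37), whereas with the AM list scaling the value was 0.06 with an adjusted p of 0.132. Tctn1, on the opposite strand across Hvcn1, had 154 to 242 counts per library. By ratio, Cybb stood at 13.1 and 12.3 times Hvcn1 per length in Controls and at 10.9 and 10.2 times in the Tumor libraries.

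Nos2 (ENSMUSG00000020826, chromosome 11, 78920787 to 78960254, plus strand) was the only one of the 8 genes under the floor in Controls. It had 1 and 0 counts there and 118 and 152 counts in the Tumor libraries, that is, 6.81 and 7.75 CPM. Against the floor of the Control libraries it was at least 35.8-fold higher. The edgeR adjusted p of 7.95e-14 belongs to the fitted change, not to this bound. Nos2 passed the count filter through its Tumor libraries alone. The level reached was low. Per length Nos2 ranked 9940th of 14256 genes in the Tumor group, whereas Cybb ranked 42nd in the Control and 75th in the Tumor group. The other NO synthase genes, Nos1 and Nos3, named after their values were seen, had at most 7 counts in any library.

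Sod2 (ENSMUSG00000006818, chromosome 17, 13006846 to 13040063, plus strand) fell most in relative terms. It was at 377.0 and 360.4 CPM in Controls and at 203.0 and 202.4 CPM in the Tumor libraries, which were almost identical. This is 1.82-fold lower, a log2 fold change of -0.86 ± 0.0310 (SE) with an edgeR adjusted p of 2.26e-19. Under the AM list scaling it was -0.37 and still called. Its cytosolic counterpart Sod1 rose, with a log2 fold change of 0.27 and an edgeR adjusted p of 0.000138.

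**Figure D3:**
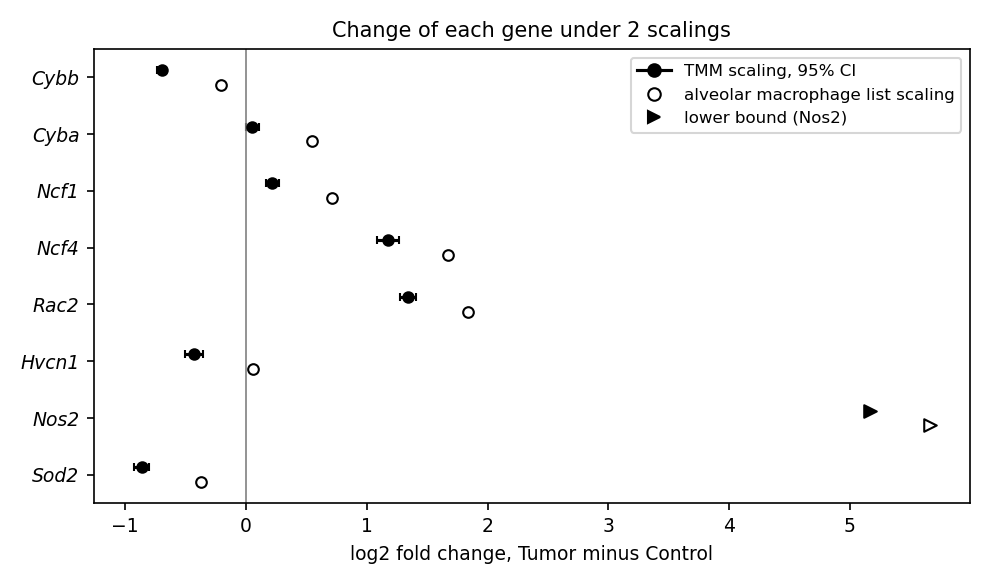
Log2 fold change of each gene, Tumor minus Control (x axis), with TMM scaling (filled circles with 95% intervals) and with scaling on the AM list (open circles), and lower bounds for Nos2 as triangles. Every gene shifts to the right by about the same amount, which takes Hvcn1 from -0.43 to 0.06 and leaves Cybb and Sod2 below 0 at -0.20 and -0.37.

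The 8 genes were ordered by CPM per kilobase of gene length. In Controls the order was Cybb (737.2 and 716.8), Cyba (422.7 and 449.8), Ncf1 (130.9 and 129.7), Hvcn1 (56.2 and 58.4), Rac2 (51.9 and 50.9), Ncf4 (39.7 and 41.2), Sod2 (37.7 and 36.01) and Nos2 (0.0121 and 0). Neighbours in this order did not overlap. In the Tumor libraries Cyba (454.2 and 451.3) and Cybb (454.8 and 441.9) overlapped and could not be ordered by gene length, although by longest transcript Cyba was the higher of the pair. They were followed by Ncf1 (149.96 and 153.5), Rac2 (128.2 and 132.4), Ncf4 (88.4 and 94.2), Hvcn1 (41.5 and 43.3), Sod2 (20.3 and 20.2) and Nos2 (1.54 and 1.76), none of which overlapped. Rac2 and Ncf4 thus passed Hvcn1. When the longest annotated transcript replaced the gene length, 6 of the 8 genes kept their place in both groups, and Sod2 and Rac2 moved in the Control order.

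Each of these values is a bulk average over whatever cells the library held, in which fewer cells of a type and less RNA per cell cannot be told apart. Marker lists of other cells moved together with the genes that rose. All 12 neutrophil markers were higher, and their summed level went from 113.5 to 113.7 CPM in Controls to 4515 to 4541 CPM in the Tumor libraries. Elane and Padi4 had 0 counts in both Control libraries, and S100a9 reached 1086 and Ngp 849.6 CPM on average in the Tumor group. The study speaks of AM isolation for staining and for RNA-seq together and describes the stained cells as CD45+ CD11b- CD11c+ SiglecF+, a gate that would leave out neutrophils. Itgam, which encodes CD11b, rose from 1.13 to 131.9 CPM in the Tumor group. Neutrophils carry the same oxidase, and their part in the rises of Ncf1, Ncf4, Rac2 and Nos2 was not tested. All 5 eosinophil markers were higher, from a sum of 0.570 to 0.587 CPM to 2264 to 2290 CPM.

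Further lists also differed. The 6 basophil and mast cell markers summed to 0.267 to 0.317 CPM in Controls and 64.0 to 75.0 CPM in the Tumor libraries, and all 6 were higher. Monocyte markers, 4 of 6 higher and 1 lower, summed to 20.1 to 20.2 CPM and 62.7 to 66.1 CPM. Dendritic cell markers (2 of 6 higher, 1 lower), B cell markers (3 of 4 higher) and T cell markers (2 of 4 tested higher) summed to at most 25.1 CPM in any library. The 6 hepatocyte genes were all higher, from at most 0.444 CPM to 602.2 to 604.1 CPM. AM markers were abundant throughout, with none at the floor, and fell from a sum of 19882 to 19995 CPM to 14208 to 14322 CPM. Of these 16, 14 were lower and 1 was higher with TMM, and under scaling on that same list 7 were lower and 7 higher. A gate on CD45+ CD11b- cells would also leave out hepatocytes, which lack CD45, and most monocytes and eosinophils, which carry CD11b. The part of these other cells in the changes of the 8 burst genes was likewise not tested.

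**Figure D4:**
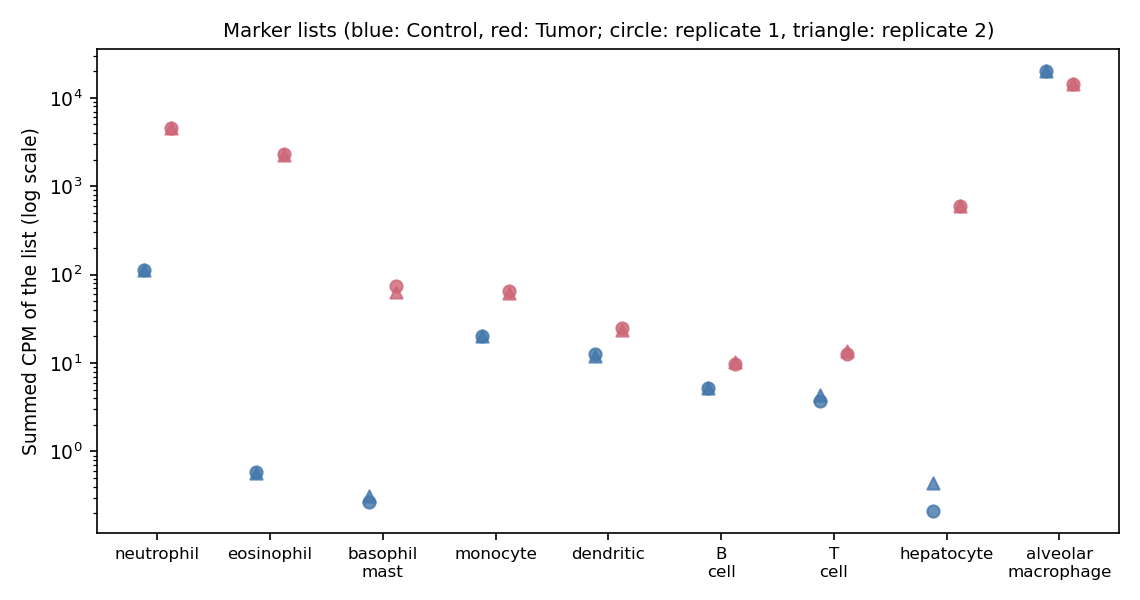
Summed CPM of each marker list (y axis, log scale) in the 2 Control (blue) and 2 Tumor libraries (red). Neutrophil, eosinophil, basophil and mast cell, and hepatocyte lists lie far higher in the Tumor libraries, and the AM list lies lower.

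The wider machinery of the burst was read from lists of genes by role. Of 101 such genes, 88 had enough counts to be tested and 64 were called, 36 higher and 28 lower. The median log2 fold change of the 88 was 0.04. The background was 53.8% called, 29.0% higher and 24.8% lower. Under the AM list scaling 81 of the list genes were called, 72 higher and 9 lower. The background under that scaling was 74.9% of all tested genes called, 69.8% higher and 5.06% lower. Counts for each list below stand beside these shares. Directions are with TMM scaling, and those that turned under the AM list scaling are named as such.

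Other oxidase genes were few. Cybc1, whose product is a chaperone of NOX2, rose by 0.49 ± 0.0539 on the log2 scale (SE, edgeR adjusted p 1.01e-08). Noxo1, an organizer of another NOX enzyme, had 36 and 21 counts in Controls and 16 and 30 in the Tumor libraries and was not called. Nox3, Duox2, Duoxa1 and Duoxa2 had 0 counts in all libraries, and Nox1, Nox4, Noxa1 and Duox1 had at most 8 counts. Cybb was the one NOX catalytic gene with counts well above the floor.

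Of 19 regulators of oxidase assembly, 14 were higher, 2 lower and 3 not called, beside 29.0% of all genes tested higher. Under the AM list scaling all 19 were higher, beside 69.8% of all genes tested. Tiam1, which loads Rac with GTP, rose from 0.977 ± 0.127 to 22.6 ± 0.383 CPM (SD, n = 2 each), a log2 fold change of 4.51. Prkcb, a protein kinase C that phosphorylates p47phox, rose from 2.88 ± 0.224 to 59.5 ± 0.613 CPM, a log2 fold change of 4.36. Pik3cd, a lipid kinase of leukocytes, rose by 0.91. Arhgdia, which holds Rac proteins inactive in the cytosol, fell slightly (-0.28), as did Pak2, a kinase bound by Rac (-0.12), and both were higher under the AM list scaling. The neutrophil markers rose in the same libraries, and their part in these rises was not tested.

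Of 13 surface receptors that set off or, as Fcgr2b does, restrain the burst, 13 were called, 9 lower and 4 higher. Of all genes tested, 53.8% were called, 24.8% lower and 29.0% higher. Tlr2, a receptor for bacterial lipoproteins, went from 3089 ± 7.08 to 1458 ± 8.68 CPM (SD, n = 2 each), a log2 fold change of -1.08. Fpr1, a receptor for bacterial formyl peptides, was lower at -0.69, and Clec7a, the receptor for fungal beta-glucan, at -0.57. These 3 falls kept their direction under the AM list scaling, at -0.59, -0.20 and -0.07. Of the 9 lower genes, 4 turned higher under that scaling and 1 was not called, which made 8 higher and 4 lower. Of all genes tested, 69.8% were higher and 5.06% lower under that scaling. Itgam, the complement receptor chain that AMs carry little of and neutrophils carry abundantly, rose from 1.13 ± 0.0143 to 131.9 ± 2.14 CPM. Fcgr2b, the inhibitory Fc receptor, rose by 2.03, and Ptafr by 0.19.

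Among 11 transcription factors that bind oxidase or Nos2 genes, 4 were higher and 6 lower. Cebpe, a factor of granulocyte maturation, had 7 and 1 counts in Controls and 470 and 521 in the Tumor libraries. Cebpa and Cebpb rose by 0.34 and 0.33. The NF-kB genes Nfkb1 and Rela were lower at -0.53 and -0.47, but no fall in this list held under the AM list scaling, where neither of these was called and 9 of the 11 were higher.

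Of 8 genes that supply NADPH, the fuel of the oxidase, 2 were higher and 2 lower. G6pdx, the entry enzyme of the pentose phosphate pathway, rose by 0.26 and Nadk, which makes NADP, by 0.10. Idh1 (-0.37) and Pgd (-0.33) fell, and both turned higher under the AM list scaling, which had 7 higher and 0 lower. Of 17 tested genes that remove superoxide and peroxide, 4 were higher and 5 lower, against 13 higher and 3 lower under the AM list scaling. Srxn1, which repairs overoxidized peroxiredoxins, went from 166.8 ± 2.29 to 45.9 ± 0.296 CPM (SD, n = 2 each), a log2 fold change of -1.86. Txnrd1, which reduces thioredoxin, stood at -1.31 and Prdx1, a peroxidase that thioredoxin recharges, at -0.63. All 3 remained lower under the AM list scaling, as did Sod2. Prdx6, whose product also handles surfactant lipid, rose by 1.16, catalase (Cat) by 0.41 and Sod1 by 0.27.

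Of 14 tested genes around nitric oxide, 4 were higher and 4 lower, against 11 higher and 2 lower under the AM list scaling. Gch1, the first enzyme in making the cofactor that Nos2 requires, went from 94.2 ± 2.62 to 51.0 ± 0.0176 CPM (SD, n = 2 each), a log2 fold change of -0.88. The arginine carriers Slc7a1 and Slc7a2 were lower at -0.84 and -0.41. Gch1 and Slc7a1 stayed lower under the AM list scaling, at -0.39 and -0.35, whereas Slc7a2 was higher by 0.08. Nosip, which binds endothelial NO synthase, rose by 0.58.

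Of 4 heme peroxidases, enzymes that use hydrogen peroxide, 3 were at the floor in both Controls. Mpo, the peroxidase of neutrophil granules, had 3 counts in each Control against 1684 and 1914 with tumor, which is at least 511.6-fold higher. Epx, the peroxidase of eosinophil granules, had 1 count in each Control against 7699 and 8386 with tumor, which is at least 2248-fold higher. Both rose beside the granulocyte marker lists given above. Lpo had 0 counts in all libraries, and Pxdn had 4 and 3 counts in Controls and 4 and 9 in the Tumor libraries.

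**Figure D5:**
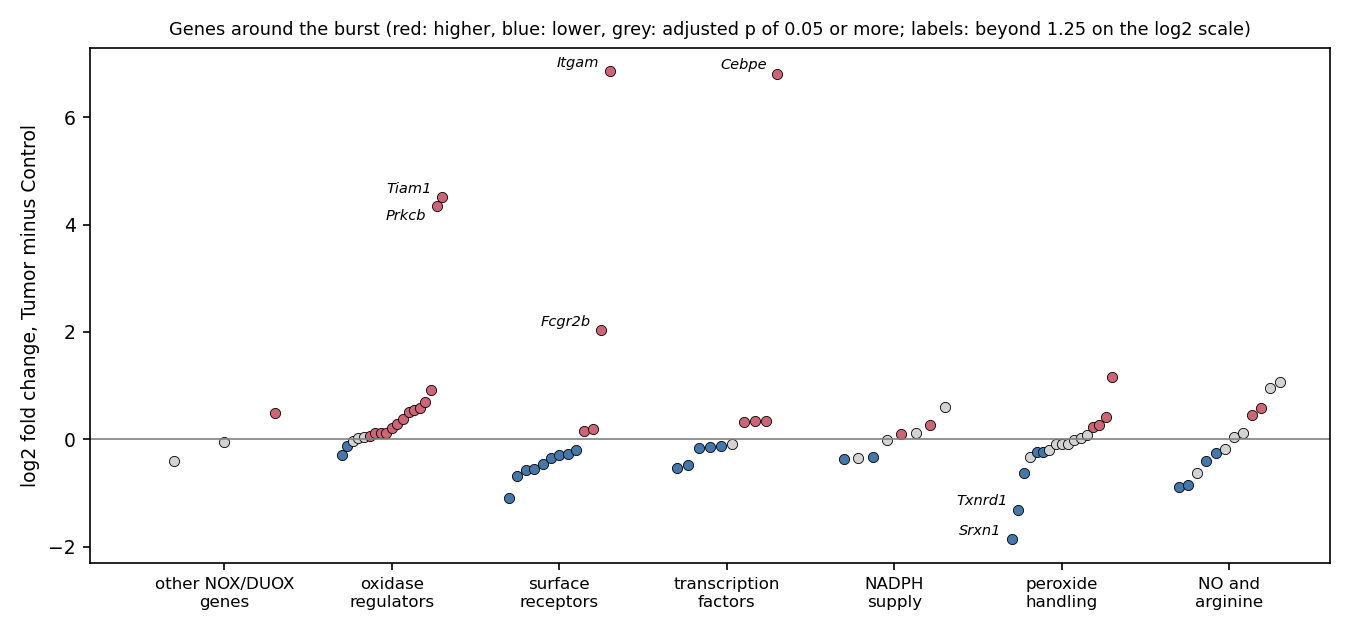
Log2 fold change, Tumor minus Control (y axis, TMM scaling), of genes of 7 lists around the burst, 1 point per gene, red for called higher, blue for called lower and grey for not called. Of 13 surface receptors 9 lie below 0, with Itgam and Fcgr2b far above it, regulators mostly above it, and Srxn1 and Txnrd1 mark the low end of peroxide handling.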

How the data were processed

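Counts per gene were deposited by the authors as whole numbers without normalization, 1 column per library. According to the study's methods, paired-end Illumina HiSeq reads were aligned with HISAT2 (version 2.0.5 in the submitters' processing notes) and counted with featureCounts. The notes also name DESeq2, without a role. Build, annotation, strandedness and treatment of multiply matching reads are not given in the sources used here. The deposited gene length in bases is of another unit and was used only for levels per kilobase. Of 54495 gene identifiers found in GENCODE release M21 (GRCm38), 98.3% had identical coordinates, so GRCm38 is given.

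The fit used edgeR 4.0.16 under R 4.3.3. Of all genes, 14256 passed filterByExpr (minimum count 10) and 40276 were not tested. Libraries were scaled by TMM, and group was the single term of the quasi-likelihood fit, with Benjamini-Hochberg adjustment over all genes tested. SE was obtained as the log2 fold change over the root of its F statistic. Where both Controls were at 3 counts or fewer, the fold is a bound, from the lower Tumor CPM and the higher Control floor. On simulated counts for 54532 genes, 88.5% of 200 changed genes were recovered and 4.84% of calls were false. The simulation gave every gene the same dispersion (0.000916) and rises and falls in near-equal numbers. In the real libraries 7671 genes were called and directions shifted with the scaling, so these rates do not carry over to them. The chi-square per gene between replicates was 1.81 in the Control and 2.30 in the Tumor pair, so no library was a repeat of another within counting noise, which does not show that they come from separate mice.

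The 8 genes, the lists and the rule for named genes were chosen with earlier results of these data known. Named were the 8 genes, every gene of the other oxidase list, up to 3 called rises and 3 called falls of each other list, genes at 3 counts or fewer in all libraries, abundant markers, and the 3 genes nearest to the member with the largest rise and to that with the largest fall. Some genes that this rule names are not reported here, though they count in the totals of their lists. Genes named outside the rule, namely Pxdn, Nos1, Nos3, Elane and Padi4, were chosen after their values were seen. Alternatives were DESeq2 size factors, total counts, AM list scaling, no filter, 10 counts in every library, DESeq2 1.42.0, limma-voom (limma 3.58.1), a replicate block, leaving out the 20 most abundant genes, stricter thresholds, transcript length and leaving out each library. Promoter sequences are from RefSeq, GRCm38.p6, of which 4 of the 8 genes had an entry.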

Additional observations from a re-analysis of the deposited data

How the results depend on the processing

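The count of 7 called burst genes ranged from 6 to 8 over the alternative scalings, filters and tests at the same threshold. It was 8 with total counts and 6 with the 20 genes of highest count removed, a set that held Cybb, and 3 when a log2 fold change of at least 1 was required, which left 2268 genes called of all. Cyba was called higher with total counts (0.12), AM list scaling (0.55) and at least 10 counts in every library (0.080, where Nos2 could not be tested). Hvcn1 was reversed to 0.061 by the AM list scaling. Of the refitted values of single genes, 97 kept direction and call, 4 gained a call and 1 reversed. Without 1 library in turn, a fit in which the lone library is assumed to vary like the others, 7 to 8 of the genes, 61 to 63 genes of the lists and 6502 to 7387 genes in all were called, and Cyba ranged from 0.0095 to 0.094. With the longest transcript as length, 6 of 8 genes kept their rank in both groups. The labels name no pairing of samples by replicate number. Deviations of same-numbered libraries correlated at -0.0028. With 2 libraries per group this is a single value, which cannot settle whether samples were prepared in pairs. With the replicate block 7 of the 8 genes, 64 list genes and 7446 genes in all were called, and no call among the 8 changed. Depth limited the genes at the floor, for which Nos2 is given as a bound.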

Other observations

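The genes whose log2 CPM over the 4 libraries lay closest to that of Nos2, by root mean square distance, were Tmem40 (0.24), Azgp1 (0.29) and Mkx (0.29). Tmem40 had 1 and 0 counts in the Control and 121 and 109 in the Tumor libraries. Azgp1, which encodes a secreted zinc-binding glycoprotein, had 0 counts in both Controls and 121 and 143 in the Tumor libraries. Mkx, a homeobox gene, had 2 and 0 counts and then 152 and 174. All are at the floor in Controls and at a similar low level in the Tumor libraries, which follows from how they were picked.

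Closest to Sod2 were Itpripl2 (0.031), Atp2b1 (0.058), which encodes a calcium pump of the plasma membrane, and G3bp1 (0.072), which encodes a stress granule protein. Itpripl2 went from 361.5 to 204.6 CPM, Atp2b1 from 385.3 to 205.0 CPM and G3bp1 from 369.8 to 189.9 CPM, beside 368.7 and 202.7 CPM for Sod2. The likeness is over 4 libraries only and says nothing of shared control.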
